A study of Mus musculus with 2 samples.

Results

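A set of 9 transcription factor genes that pattern the limb and its muscles were followed in total RNA of the mouse calf. They were 6 T-box genes (Tbx2, Tbx3, Tbx4, Tbx5, Tbx15 and Tbx18) and the homeobox genes Pitx1, Lbx1 and Meox2. The genes were chosen by symbol for their roles, with earlier results of these data known. All 9 were found, each under 1 gene identifier, among 55536 annotated genes. The tissue was the gastrocnemius, a hindlimb muscle that extends the ankle, taken from 2 male B6CASTF1/J mice aged 4 days. B6CASTF1/J is a first-generation hybrid of the C57BL/6J and CAST strains, and the labels give neither a treatment nor a mutation. The labels list the animals as separate biological replicates of 1 group, and each library started from 300 ng of RNA to which ERCC spike-ins had been added.

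With 1 group of 2 libraries there was no contrast between conditions, so the comparisons are between genes of a library and between the libraries. The smallest p that an exact sign-flip test (two-sided) of 2 values can give is 0.5. No test was made, and each value is given with its spread. Errors are SD over the libraries (n = 2) unless stated. Levels are TPM, an abundance scaled for transcript length and depth that can be compared between genes. In whole-tissue RNA, fewer cells of a type and less RNA per cell cannot be told apart.

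Expected counts over annotated genes came to 35281187 for replicate 1 and 32301531 for replicate 2, and the 9 genes took 9530 and 8500 of them. Muscle fibre markers defined the tissue in both libraries, with a summed level of 28953 TPM in replicate 1 and 26236 TPM in replicate 2 for Acta1, Ckm, Myh8, Myh4 and Tnnt3. The libraries stood apart in skin RNA. The 6 epidermal markers summed to 9.56 TPM (replicate 1) and 728 TPM (replicate 2), and that of 5 hair follicle markers 0.230 and 112 TPM. Markers of Schwann cells (319 and 724 TPM) and adipocytes (222 and 361 TPM) were also higher in replicate 2. Those of fibroblasts (5466 and 5429 TPM), mural cells (159 and 147 TPM) and satellite cells (40.9 and 40.6 TPM) differed by less.

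T-box proteins bind DNA through a conserved domain, the T-box, and act as activators or repressors of transcription. In the limb bud Tbx5 starts outgrowth of the forelimb, whereas Pitx1 gives the hindlimb its identity and acts upstream of Tbx4, the hindlimb counterpart of Tbx5. Later, Tbx4 and Tbx5 are used in the connective tissue that patterns limb muscles and tendons. Lbx1 and Meox2 act in the muscle lineage itself. Lbx1 is needed for muscle precursors to migrate into the limb, and Meox2 for normal growth and patterning of limb muscle.

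The T-box members form paralogous pairs whose reads could in principle be mixed, so their sequences come before their levels. Of the coding exons of equal length in each pair, the exon of highest identity is shown, 5′ to 3′, with the bases that differ between partners in capitals. Sequences and coordinates are those of the GENCODE M21 transcripts on mm10. The Tbx4 exon lies at chr11:85911107-85911259 and the Tbx5 exon at chr5:119844965-119845117, both on the plus strand.
Tbx4: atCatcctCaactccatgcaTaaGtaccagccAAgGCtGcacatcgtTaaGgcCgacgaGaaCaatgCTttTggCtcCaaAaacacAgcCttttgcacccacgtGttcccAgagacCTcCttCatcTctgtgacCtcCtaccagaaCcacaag
Tbx5: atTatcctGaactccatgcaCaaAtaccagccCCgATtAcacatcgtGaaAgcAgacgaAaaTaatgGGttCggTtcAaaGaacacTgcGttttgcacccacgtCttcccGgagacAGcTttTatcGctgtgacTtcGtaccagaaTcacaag
These exons share 121 of 153 bases (79.1%). The Tbx2 exon lies at chr11:85835795-85835941 and the Tbx3 exon at chr5:119675558-119675704, both on the plus strand.
Tbx2: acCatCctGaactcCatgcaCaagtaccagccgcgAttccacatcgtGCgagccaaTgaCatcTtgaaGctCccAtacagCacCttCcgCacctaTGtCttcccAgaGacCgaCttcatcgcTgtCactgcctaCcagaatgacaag
Tbx3: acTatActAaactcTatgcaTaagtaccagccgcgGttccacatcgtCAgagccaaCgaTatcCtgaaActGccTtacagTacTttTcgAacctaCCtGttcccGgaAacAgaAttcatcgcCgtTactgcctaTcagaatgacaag
These share 119 of 147 bases (81.0%). The Tbx15 exon lies at chr3:99314744-99314915 on the plus strand and the Tbx18 exon at chr9:87724302-87724473 on the minus strand.
Tbx15: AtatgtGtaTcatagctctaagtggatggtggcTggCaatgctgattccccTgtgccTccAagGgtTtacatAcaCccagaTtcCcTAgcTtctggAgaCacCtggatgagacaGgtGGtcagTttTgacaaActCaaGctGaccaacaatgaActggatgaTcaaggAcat
Tbx18: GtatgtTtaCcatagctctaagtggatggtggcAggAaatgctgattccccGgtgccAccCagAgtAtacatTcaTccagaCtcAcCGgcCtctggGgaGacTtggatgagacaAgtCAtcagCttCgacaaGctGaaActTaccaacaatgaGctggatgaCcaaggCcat
These share 140 of 172 bases (81.4%). The differences are spread along each exon. The longest identical run between the leading transcripts of any pair of the 9 genes was 23 nt, for Tbx15 with Tbx18 and for Tbx4 with Tbx5.

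The 9 genes spanned a wide range, with Tbx15 highest and Tbx5 lowest. At a threshold of 1 TPM in both libraries, 8 of the 9 genes were counted, the exception being Tbx5. Of all annotated genes 24.5% passed the same threshold, and of protein-coding genes 55.3%. The median level of the 9 was 5.32 ± 0.148 TPM, beside 2.38 ± 0.247 TPM for all protein-coding genes and 10.06 ± 0.0707 TPM for annotated genes at 1 TPM or more in both libraries. By mean level, Tbx15, Meox2, Lbx1, Tbx2, Tbx3, Tbx18, Tbx4, Pitx1 and Tbx5 followed each other in this order. The values of neighbours in the order did not overlap between the libraries, except those of Tbx18 and Tbx4. The gap between Lbx1 and Tbx2 (1.12 TPM) was close to their combined SD of 0.911 TPM.

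**Figure D1:**
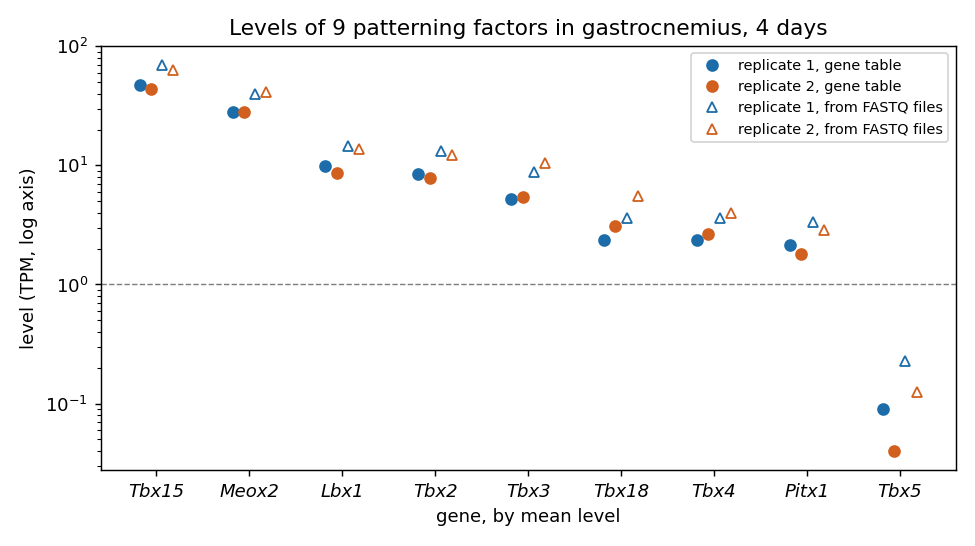
Level of each gene in TPM (log axis) in replicate 1 (blue) and replicate 2 (orange), from the gene tables (filled circles) and from the tables made directly from FASTQ files (open triangles). The dashed line marks 1 TPM. Tbx15 stands highest at 47.8 and 43.7 TPM by the gene tables, and Tbx5 is the gene below the line at 0.0900 and 0.0400 TPM.

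Hindlimb factors were present and the forelimb factor was near the detection limit. Tbx4 had 2.35 TPM (replicate 1) and 2.64 TPM (replicate 2), from 206 and 215 counts. Pitx1 stood at 2.15 and 1.81 TPM, from 148 and 116 counts. Tbx5 stood at 0.0900 and 0.0400 TPM, from 6 and 4 counts. Tbx4 and Pitx1 lay near the middle of the protein-coding genes, at percentiles 50.4 and 47.9 of mean level, and Tbx5 at percentile 27.1.

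The exact Poisson 95% interval of the Tbx5 count ran from 2.20 to 13.1 counts in replicate 1 and from 1.09 to 10.2 counts in replicate 2. These bounds equal 0.0324 to 0.192 TPM and 0.0104 to 0.0978 TPM, and like all intervals here they cover counting error only. A count of 0 would have allowed up to 0.0442 and 0.0286 TPM, taking 3 counts as its limit, so the Tbx5 level in each library lay little above what no read would allow. The tables made directly from FASTQ files gave Tbx5 more estimated counts, 18.2 in replicate 1 and 9.11 in replicate 2. Their levels of 0.227 and 0.124 TPM were still the lowest of the 9 genes.

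Tbx4 exceeded Tbx5 in both animals. The log2 ratio of TPM plus a pseudocount of 0.1 was 3.69 in replicate 1 and 4.29 in replicate 2 (mean 3.99 ± 0.43, or 15.9-fold). The pseudocount understates this ratio because Tbx5 is so low. Without it, the ratio of length-corrected counts was 26.6-fold in replicate 1 (95% counting interval 12.01 to 73.3) and 69.2-fold in replicate 2 (26.7 to 256). The intervals of the libraries overlap, and each lies wholly above 10-fold. They do not cover the length used for Tbx5, which rests on how its few counts were divided among transcripts. With the pseudocount, the tables made directly from FASTQ files gave a mean log2 ratio of 3.86 ± 0.48. Those tables held Tbx4 at 3.65 and 4.01 TPM and Tbx5 at 0.227 and 0.124 TPM. Without the pseudocount, their ratio was thus below that of the gene tables in both libraries. Pitx1 exceeded Tbx5 by a log2 ratio of 3.67 ± 0.14 (12.7-fold), with 3.57 in replicate 1 and 3.77 in replicate 2. Without the pseudocount this ratio was 24.3-fold in replicate 1 (10.9 to 67.4) and 47.4-fold in replicate 2 (18.02 to 177).

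Both pairs of T-box genes that lie side by side in the genome held unequal partners. Tbx2 (85832551 to 85841948) and Tbx4 (85886422 to 85916097) are 44473 bases apart on the plus strand of chromosome 11. Tbx3 (119670669 to 119684724) and Tbx5 (119832668 to 119885219) are 147943 bases apart on the plus strand of chromosome 5. Next to Tbx4 at 2.50 ± 0.205 TPM stood Tbx2 at 8.17 ± 0.438 TPM, and next to Tbx5 at 0.0650 ± 0.0354 TPM stood Tbx3 at 5.32 ± 0.148 TPM. The neighbour was thus the higher gene at both loci.

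Tbx2 and Tbx3, paralogous repressors used in limb margins, heart and many other organs, were closer to each other than the members of the other T-box pairs. Tbx2 had 8.48 TPM (replicate 1) and 7.86 TPM (replicate 2), from 875 and 756 counts. Tbx3 stood at 5.21 and 5.42 TPM, from 648 and 652 counts. Tbx2 was the higher in both libraries, with a log2 ratio of 0.61 ± 0.12 (1.53-fold).

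Tbx15, which in mice acts in skeletal development and in glycolytic muscle fibres, was the leading patterning factor. It had 47.75 TPM (replicate 1) and 43.73 TPM (replicate 2), from 4784 and 4063 counts, at percentile 93.4 of the protein-coding genes. Its closest paralog among the members, Tbx18, is known from somites, the sinoatrial node and mural cells. Tbx18 stood at 2.37 and 3.08 TPM, from 318 and 385 counts. Tbx15 exceeded Tbx18 by a log2 ratio of 4.03 ± 0.35 (16.3-fold), with 4.28 in replicate 1 and 3.78 in replicate 2.

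Tbx15 made up 70.9% ± 1.70 of the summed level of the 6 T-box members, Tbx2 12.7% ± 0.197, Tbx4 3.88% ± 0.466 and Tbx5 0.0998% ± 0.0510. Of the other 11 T-box genes of the mouse list, 2 reached 1 TPM in both libraries. They were Mga (26.9 ± 2.70 TPM), a partner of Max that carries a T-box beside another DNA-binding domain, and Tbx1 (1.86 ± 0.354 TPM). The next highest was Tbx21 at 0.440 ± 0.0566 TPM. Eomes and Tbx22 had 0 counts in both libraries, limits of 0.0395 and 0.0424 TPM for Eomes and of 0.0393 and 0.0422 TPM for Tbx22. Of the summed level of all 17 T-box genes, the 6 members held 68.3% ± 0.971. With Mga left out, they held 95.4% ± 0.466 of the level of the remaining 16, and Tbx15 alone 67.6% ± 1.96. T-box expression in this muscle was therefore mainly Tbx15 and Mga.

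**Figure D2:**
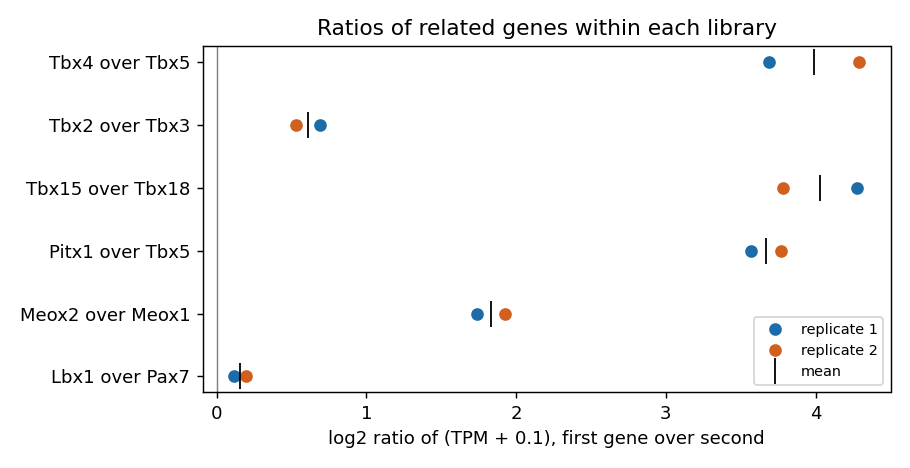
Log2 ratio of TPM plus 0.1 of the first gene over the second in replicate 1 (blue) and replicate 2 (orange), with the mean as a bar. Tbx15 over Tbx18 (4.03), Tbx4 over Tbx5 (3.99) and Pitx1 over Tbx5 (3.67) lie far from 0, their order depending on the pseudocount, and Lbx1 over Pax7 lies nearest to 0 at 0.16.

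Lbx1 and Meox2 were both well detected, though whole-tissue RNA does not show which cells they came from. Meox2 had 28.09 TPM (replicate 1) and 28.27 TPM (replicate 2), from 1858 and 1742 counts, at percentile 88.6 of the protein-coding genes. Lbx1 stood at 9.85 and 8.72 TPM, from 687 and 567 counts, at percentile 69.4. Meox2 differed least between the animals of the 9 genes. It exceeded its paralog Meox1 (7.86 ± 0.672 TPM), a gene of the early somite, by a log2 ratio of 1.83 ± 0.13 (3.56-fold).

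Lbx1 was set beside Pax7, the marker of satellite cells, which stood at 8.34 ± 1.05 TPM. Their log2 ratio was 0.12 in replicate 1 and 0.20 in replicate 2. The 95% counting interval of the fold was 0.987 to 1.19 in replicate 1 and 1.03 to 1.28 in replicate 2, and the tables made directly from FASTQ files gave a mean log2 ratio of -0.04. Lbx1 and Pax7 could not be ordered. Pax3, the gene that precedes Lbx1 in migrating precursors, stood at 0.0450 ± 0.0354 TPM, from 2 and 7 counts, and at 0.143 and 0.304 TPM in the FASTQ-based tables.

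Counts were divided among several transcripts mainly in Tbx3 and Tbx4. Tbx2, Lbx1 and Meox2 have 1 annotated transcript each. For Tbx18 and Pitx1 the leading transcript took all alignment-based counts, and Tbx15-201 took 98.4% ± 0.318 of Tbx15. Pitx1-202 was at 0 counts in either library, a limit of 0.188 and 0.202 TPM. For Tbx5 the 10 counts in all were too few to divide between its 3 transcripts, of which Tbx5-203 was at 0 counts, a limit of 0.184 and 0.197 TPM.

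Tbx3 is made with or without an additional coding exon inside the T-box. The exon has 60 bases at chr5:119675243-119675302 on the plus strand and is printed because it is the coding difference between the main transcripts.
Tbx3 additional exon: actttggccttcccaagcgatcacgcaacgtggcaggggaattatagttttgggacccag
Among the 3 coding transcripts, that with the exon (Tbx3-201) held 24.9% of the TPM in replicate 1 and 13.6% in replicate 2, or 19.3% ± 8.02. The tables made directly from FASTQ files gave 17.3% and 13.1%. The form without the exon was the larger share in both libraries by both quantifications. The transcripts without it, Tbx3-202 and Tbx3-203, differ outside the coding exons, and their split was not stable. Tbx3-203 held 55.5% and 71.1% of the gene in the alignment-based tables and 31.4% and 44.3% in the others.

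Tbx4 has transcripts from upstream starts (Tbx4-201 and Tbx4-203) and one from an internal start (Tbx4-202), 10343 bases downstream of the start of Tbx4-203. By the alignment-based tables the upstream transcripts held 86.8% of Tbx4 in replicate 1 and 63.6% in replicate 2. The internal transcript held the remaining 13.2% and 36.4%. By the tables made directly from FASTQ files it held 0% and 68.6%. The share of the internal start thus changed with the library and with the quantification, so no preferred start can be named. Tbx4-203 held 64.1% and 63.7% in the alignment-based tables and 68.1% and 31.4% in those made from FASTQ files.

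The RefSeq promoter table on GRCm38.p6, which holds entries for Tbx4, Tbx18 and Meox2 of the 9 genes, gives for Tbx4 the promoter of this internal start. Its 250 bases upstream of the start, at chr11:85896515-85896764 on the plus strand, are shown because the disputed transcript begins directly after them. Capitals mark the match to TATAA on the plus strand together with the overlapping match on the minus strand.
Tbx4 internal promoter: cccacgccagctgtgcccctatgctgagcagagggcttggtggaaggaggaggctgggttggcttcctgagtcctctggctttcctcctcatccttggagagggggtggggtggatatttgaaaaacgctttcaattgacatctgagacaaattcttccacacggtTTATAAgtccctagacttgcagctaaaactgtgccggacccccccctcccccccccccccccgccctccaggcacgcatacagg
The match begins 83 bases before the start. TATAA on either strand occurs in 22.8% of the 32851 promoters of the table over the same length, and a match describes letters, not use.

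**Figure D3:**
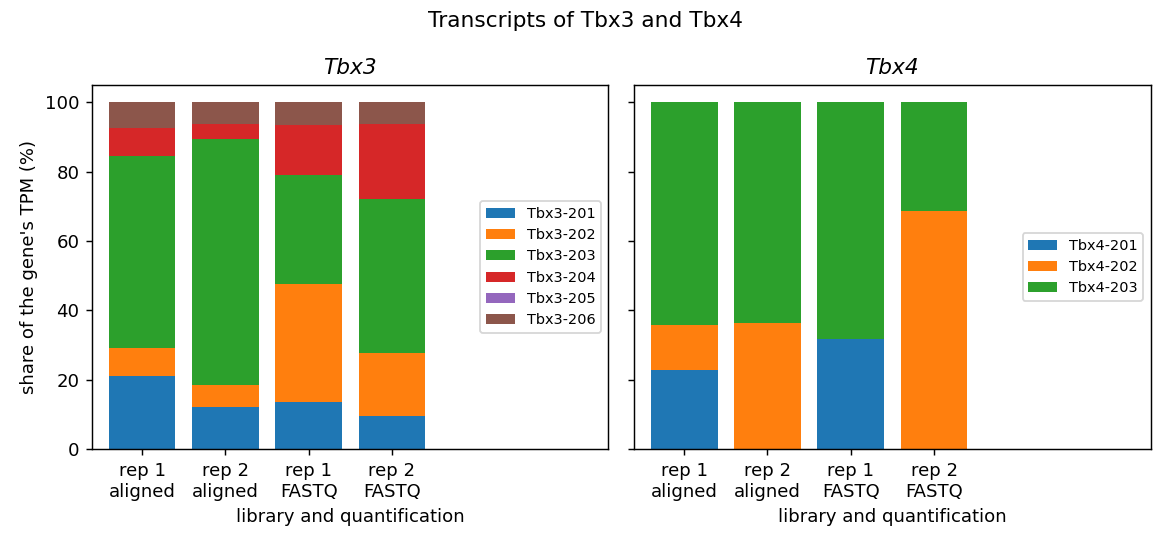
Share of the gene's TPM (%) held by each annotated transcript of Tbx3 (left) and Tbx4 (right), as stacked bars for each library in the alignment-based tables and in the tables made from FASTQ files. Tbx3-203 is larger in the aligned bars (55.5% and 71.1%) than in the FASTQ bars (31.4% and 44.3%), and Tbx4-202 holds 0% and 68.6% in the FASTQ bars.

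Several members overlap other annotated genes, and no source used here states whether counting used strand. The antisense gene Tbx3os1 overlaps Tbx3 by 697 bases and had 72 and 61 counts, or 11.1% and 9.36% of those of Tbx3. Gm47071, antisense to Pitx1 over 9943 bases, had 13 and 11 counts, or 8.78% and 9.48% of those of Pitx1. The other overlapping genes had fewer counts relative to their partner, with D030062O11Rik at 2.83% and 3.12% of Tbx18, Gm48617 at 1.35% and 1.26% of Meox2, Gm28760 at 0.676% and 0% of Pitx1 and Gm43120 at 0 counts within Tbx15.

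With Tbx5 left out for its low counts, the animals differed in these genes about as much as in all genes. Ratios of counts, scaled with edgeR's TMM factors, were taken as replicate 1 over replicate 2 for the 8 members whose mean count reached 10. None of the 8 differed by over 2-fold, where 6.17% of 17998 genes did, and none by over 1.5-fold, where 12.6% did. A count of 0 among 8 genes does not set the members apart from shares this small. The median absolute log2 ratio was 0.15 for the 8 members and 0.16 for all genes. The 95% counting interval left out 0 for 3 of the 8 members, beside 36.2% of all genes, a share close to that of the members.

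The 3 members were Tbx15, Lbx1 and Tbx18. Tbx15 was higher in replicate 1 by a log2 ratio of 0.15 (interval 0.09 to 0.21) and Lbx1 by 0.19 (0.03 to 0.36). Tbx18 was lower in replicate 1, at -0.36 (-0.58 to -0.14), which makes it 1.28-fold higher in replicate 2. These are small differences between single libraries and have no replicate check. Beside Tbx18, every epidermal, hair follicle, Schwann cell and adipocyte marker was higher in replicate 2. Their sums were 76.2-fold, 486-fold, 2.27-fold and 1.62-fold higher. All 4 macrophage markers were also higher in replicate 2, 1.15-fold in sum. Mural markers went the other way, at 0.926 of replicate 1 in sum, with 1 of 5 higher in replicate 2. The part of any of these cell types in the Tbx18 difference was not tested. Beside Tbx15 and Lbx1, the summed muscle fibre markers in replicate 2 were 0.906 of those in replicate 1. All 5 were higher in replicate 1. Satellite cell markers in replicate 2 were 0.991 of replicate 1 in sum, with 1 of 5 higher in replicate 2. Among them, Pax7 was higher in replicate 1 by a log2 ratio of 0.33 (0.21 to 0.46). The part of either cell type was likewise not tested. For Tbx5 the log2 ratio of 0.45 had an interval of -1.58 to 2.77, so no difference was detectable at this depth. The ratio of its TPM gave 1.17, over 2-fold, and the FASTQ-based counts gave 0.88.

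**Figure D4:**
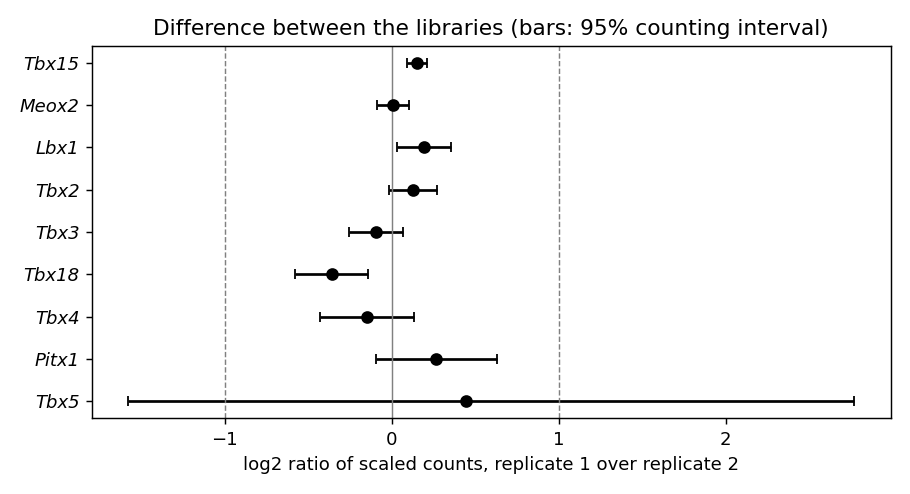
Log2 ratio of scaled counts, replicate 1 over replicate 2, for each gene, with the exact 95% counting interval as a bar. The dashed lines mark 2-fold. The intervals of Tbx15, Lbx1 and Tbx18 leave out 0, and that of Tbx5 runs from -1.58 to 2.77.

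Other genes of limb patterning were set beside the 9 factors. The share to hold beside each list count is the 55.3% of protein-coding genes at 1 TPM in both libraries. The limb bud count lay close to it. Of 24 limb bud genes 12 reached 1 TPM in both libraries, with a median of 1.01 TPM in replicate 1 and 1.61 TPM in replicate 2. Among the highest were Prrx1, a homeobox gene of limb mesenchyme (38.1 ± 0.827 TPM), and the Hedgehog receptor Ptch1 (11.04 ± 2.15 TPM). Of the 3 signals of the bud in this list, Shh had 0 and 8 counts, Fgf8 1 and 0 counts, and Fgf10, the signal of the mesenchyme, 158 and 237 counts (1.35 and 2.17 TPM). By the gene tables, Tbx15 was the only one of the 9 factors above Prrx1. The tables made directly from FASTQ files reversed this order in both libraries. There Prrx1 stood at 81.8 TPM (replicate 1) and 76.4 TPM (replicate 2), and Tbx15 at 69.4 and 63.4 TPM.

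Posterior and anterior Hox genes were both present. The 8 posterior Hox genes were led by Hoxc10 (17.2 ± 1.73 TPM), Hoxa10 (12.2 ± 1.37 TPM) and Hoxc11 (4.67 ± 0.339 TPM). Of the 8, 7 reached 1 TPM in both libraries, with list medians of 4.17 and 3.50 TPM. Of 6 anterior Hox genes used at forelimb level 4 reached it, led by Hoxa4 (3.92 ± 0.212 TPM), Hoxc4 (2.91 ± 0.148 TPM) and Hoxa5 (1.91 ± 0.219 TPM), with medians of 2.05 and 1.73 TPM. The anterior Hox genes lay between 0.365 and 3.92 TPM, each above Tbx5.

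Of 12 genes of limb muscle precursors, 11 reached 1 TPM in both libraries, Pax3 being the exception. Among the highest were the chemokine Cxcl12 (42.8 ± 0.0707 TPM) and the docking protein Gab1 (14.4 ± 0.445 TPM), with list medians of 7.22 and 6.85 TPM. Lbx1 and Meox2 thus lay above these medians in both libraries. All 7 genes of muscle connective tissue reached 1 TPM, with medians of 31.5 and 32.6 TPM. Its matrix genes were highest, Col3a1 at 2293 ± 22.4, Dcn at 308 ± 1.22 and Lum at 46.1 ± 11.6 TPM. Its transcription factors Tcf7l2 (21.7 ± 0.990 TPM), Osr1 (7.05 ± 0.198 TPM) and Osr2 (8.16 ± 0.474 TPM) stood above Tbx4 and Pitx1.

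**Figure D5:**
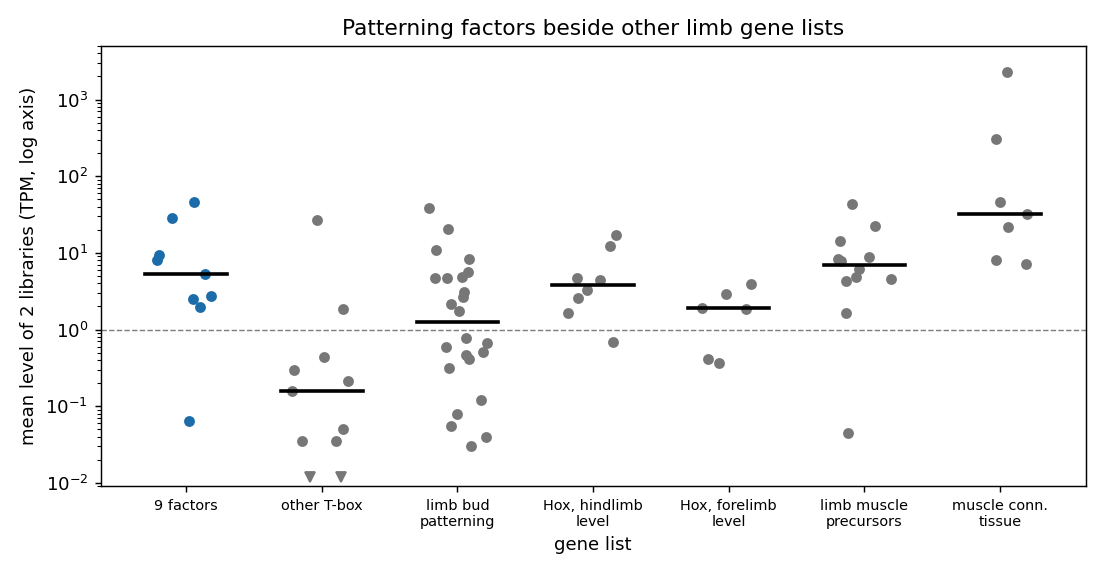
Mean level over both libraries in TPM (log axis) of each gene in the 9 factors (blue) and in 6 other gene lists (grey), with the median of the points as a bar and the dashed line at 1 TPM. Triangles at the lower edge are genes with 0 counts in both libraries. The groups labelled Hox, hindlimb level and Hox, forelimb level hold the posterior and anterior Hox genes. These labels name lists only, as there was no forelimb sample to compare. The 9 factors run from Tbx5 at 0.0650 TPM to Tbx15 at 45.7 TPM.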

How the data were processed

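The values come from total RNA-seq of 2 gastrocnemius libraries, quantified by the authors on mm10 with GENCODE M21, per the deposited notes. Aligner and quantifier: not given in the sources used here. Per the file headers, the deposited alignment-based tables give expected counts and TPM per gene and per transcript, under RSEM column names, plus each transcript's percent of its gene. A further deposited transcript table, derived from FASTQ files per the deposited notes, holds estimated counts and TPM under kallisto column names; its values were summed per gene. TPM sums to 1000000 over all entries, so abundant noncoding RNA lowers every other level.

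The total of expected counts was 35512215 for replicate 1 and 32507943 for replicate 2. For genes whose mean count reached 10, whole-number counts gave TMM factors (edgeR 4.0.16, R 4.3.3). Ratios added 0.5 to each count. DESeq2 1.42.0 gave alternative size factors. Intervals of a split of counts are exact (Clopper-Pearson) 95% intervals, made with scipy 1.17.1. No molecular identifiers are in the files, so intervals cover counting error only. The ratio calculation was also run on simulated counts that held counting error only, and no result above rests on that run.

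The members, lists and pairs were chosen with earlier results of these data known. All members and pair partners and up to 3 genes of highest mean TPM in each list were named, with genes of 0 counts; 2 genes that this rule names are not reported here. Values of other named list genes (Pax3, Shh, Fgf8, Fgf10, Tcf7l2, Osr1 and Osr2) were chosen after they were seen. Likeness to other genes was not computed over 2 libraries.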

Additional observations from a re-analysis of the deposited data

How the results depend on the processing

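No paired analysis was possible because there is a single group. The count of 8 members at 1 TPM or more in both libraries and the count of 0 over 2-fold, which leaves out Tbx5 where its mean count is under 10, held under every alternative tried, among them a minimum of 0.5 TPM, the FASTQ-based tables and DESeq2 size factors, and without either replicate the first was 8. Levels rest on the quantification and on the TPM denominator. Tbx15 read 66.4 TPM from the FASTQ-based tables. It read 109.5 TPM when TPM was rescaled over protein-coding genes outside the mitochondrial genome. The other members moved in the same direction. So did protein-coding genes at 1 TPM or more in both libraries. Their median FASTQ-based level was 1.59-fold (replicate 1) and 1.62-fold (replicate 2) that of the gene tables. For Tbx15 this fold was 1.45 in each library, and for Tbx5 it was 2.52 and 3.10. The ratios without a replicate ran from 3.69 to 4.29 for Tbx4 over Tbx5, 0.53 to 0.69 for Tbx2 over Tbx3, 3.78 to 4.28 for Tbx15 over Tbx18, 3.57 to 3.77 for Pitx1 over Tbx5, 1.74 to 1.92 for Meox2 over Meox1 and 0.12 to 0.20 for Lbx1 over Pax7.

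With a pseudocount of 0.01, Tbx4 over Tbx5 was 5.14 and Pitx1 over Tbx5 4.81. With a pseudocount of 1 these ratios were 1.71 and 1.48, and Tbx15 over Tbx18 was 3.65. Depth-scaled counts not divided by length gave 4.69 for Tbx4 over Tbx5, 0.32 for Tbx2 over Tbx3, 3.64 for Tbx15 over Tbx18, 4.02 for Pitx1 over Tbx5 and, reversed, -0.81 for Lbx1 over Pax7. The FASTQ-based tables gave 0.41 for Tbx2 over Tbx3, 1.66 for Meox2 over Meox1 and, reversed, -0.039 for Lbx1 over Pax7. The cause of the FASTQ-based shifts was not tested. The library ratio of Meox2, 0.01, turned to -0.0092 by the ratio of TPM and to -0.014 by FASTQ-based counts. That of Tbx5, 0.45, moved to 1.17 by the ratio of TPM and to 0.88 by FASTQ-based counts.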
